A study of Rattus norvegicus with 4 samples.

Results

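Small RNA sequencing counts were examined for the products of the miR-23/27/24 paralog clusters in rat growth plate chondrocytes and in the matrix vesicles (MVs) these cells produce. All products numbered miR-23, miR-24 or miR-27 were taken, whatever their letter or arm, and counts of the same mature name were added together. Names are given without the prefix for the rat (rno-miR-27b-3p is miR-27b-3p, rno-miR-23a-3p is miR-23a-3p, rno-miR-24-3p is miR-24-3p). This gave 11 of the 740 mature names in the count table, from 6 precursor genes. The 5 products of the 3p arm, miR-23a-3p, miR-23b-3p, miR-27a-3p, miR-27b-3p and miR-24-3p, are the guide strands, and the other 6 products come from the 5p arm.

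Chondrocytes were isolated from the costochondral cartilage of male Sprague Dawley rats, cultured separately from the resting zone (RC) and the growth zone (GC) and used at passage 4. The cell layers were treated with trypsin to release the MVs, which were then pelleted in successive spins. The labels name no treatment and no genetic change, and whether cells of several animals were pooled is not given in the sources used here. The 4 groups, cells and MVs of each zone (RC-cells, RC-MVs, GC-cells, GC-MVs), had 1 library each, so that no difference between groups had a replicate check and no test was made. Library totals ranged from 982543 to 7414467 reads of miRNAs, and 3 reads corresponded to 0.000305% of the miRNA reads in GC-MVs and to 4.05e-05% in GC-cells. Levels are percents of all miRNA reads of a library. Intervals are at the 95% level and cover the counting error of reads only. PCR copies of a molecule were counted as separate reads, so the intervals can be too narrow for the counting error of molecules. A percent does not tell whether fewer cells or vesicles carried a miRNA or whether each carried less of it.

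A miRNA precursor is a hairpin from which a duplex of 2 arms is cut. The guide arm is loaded into an Argonaute protein and directs it to mRNAs through its seed, bases 2 to 8, while the other arm is usually degraded. The miR-23a, miR-27a and miR-24-2 hairpins are cut from 1 transcript (the a cluster), and miR-23b, miR-27b and miR-24-1 from another (the b cluster). In skeletal tissue, miR-23a-3p is known to repress Runx2, the transcription factor of osteoblast and hypertrophic chondrocyte differentiation, miR-27b-3p is known to repress the collagenase Mmp13 of cartilage, and miR-24-3p is known as a regulator of the cell cycle and of senescence. In the RefSeq annotation of GRCr8, the genes of the a cluster lie on chromosome 19 between Zswim4 and Nanos3, outside protein-coding genes, and those of the b cluster lie on chromosome 17 within Aopep, an aminopeptidase gene. Exons and introns were not examined.

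Mature sequences were found in RefSeq (GRCr8) for 10 of the 11 products and are shown because the paralogs differ so little that reads can be assigned to the wrong member. The capitals mark the seed. The guide arms were:
miR-23a-3p: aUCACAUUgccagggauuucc
miR-23b-3p: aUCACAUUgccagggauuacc
miR-27a-3p: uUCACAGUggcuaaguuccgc
miR-27b-3p: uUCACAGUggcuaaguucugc
miR-24-3p: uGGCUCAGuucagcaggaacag

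The 5p arms of the same hairpins were:
miR-23b-5p: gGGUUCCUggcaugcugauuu
miR-27a-5p: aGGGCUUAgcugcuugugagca
miR-27b-5p: aGAGCUUAgcugauuggugaacag
miR-24-2-5p: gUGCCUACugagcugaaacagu
miR-24-1-5p: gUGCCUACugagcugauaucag

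The sequence of miR-23a-5p is not shown. Counted from the 5′ end, miR-23a-3p and miR-23b-3p differed at 1 position (U19A, the base of the a paralog first), as did miR-27a-3p and miR-27b-3p (C19U). Each of these pairs has a common seed, which no other mature sequence in the RefSeq table for the rat held. A read that ends before position 19 cannot be assigned to either paralog, and how the counting treated such reads is not given in the sources used here. The sums over a pair, given beside the single values below, do not depend on which paralog such reads were given to. The 5p arms miR-24-2-5p and miR-24-1-5p were alike up to position 16 by these sequences, with the first of 5 differences at position 17 (A17U, C19U, A20C, G21A and U22G), whereas miR-27a-5p and miR-27b-5p had different seeds.

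The mature miR-24-3p is identical at Mir24-1 and Mir24-2. The count table gave 30597 and 31808 reads for these loci in RC-cells, 2797 and 2889 in RC-MVs, 24280 and 25402 in GC-cells, and 2989 and 3127 in GC-MVs. The ratio of the 2 loci was between 0.956 and 0.968 in all 4 libraries. The loci were added together for the level of miR-24-3p, which would be too high if reads matching both loci had been entered at each. With the higher locus alone in place of the sum, its ratio of MVs to cells was 0.529 for RC and 0.917 for GC, against 0.536 and 0.929 with the sum.

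In cells, the guide arms were abundant and miR-27b-3p led them. It was the miRNA ranked 4 in RC-cells and 7 in GC-cells, and its rank was 25 in RC-MVs and 29 in GC-MVs. The 5 guide arms together made up 5.02% of miRNA reads in RC-cells (95% Wilson interval from 5.00% to 5.04%) and 2.82% in GC-cells (2.81% to 2.83%), against 1.70% in RC-MVs (1.67% to 1.72%) and 1.66% in GC-MVs (1.63% to 1.68%). As percents, the cell libraries thus differed in this sum, with a ratio of RC to GC of 1.78, while the MV libraries lay close together, with a ratio of 1.02. This contrast depended on the scaling, since with miR-143-3p, miR-22-3p and miR-21-5p left out of the totals the ratios were 1.43 in cells and 0.661 in MVs, an alternative added after the data were seen. As a sum, the 6 products of the 5p arm went the other way, with 0.129% in RC-cells and 0.0874% in GC-cells against 0.482% in RC-MVs and 0.178% in GC-MVs. Of the single products, miR-24-1-5p was lower in the MVs of both zones. In the growth zone miR-23b-5p and miR-27a-5p had ratios of MVs to cells of 0.539 and 0.996.

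**Figure D1:**
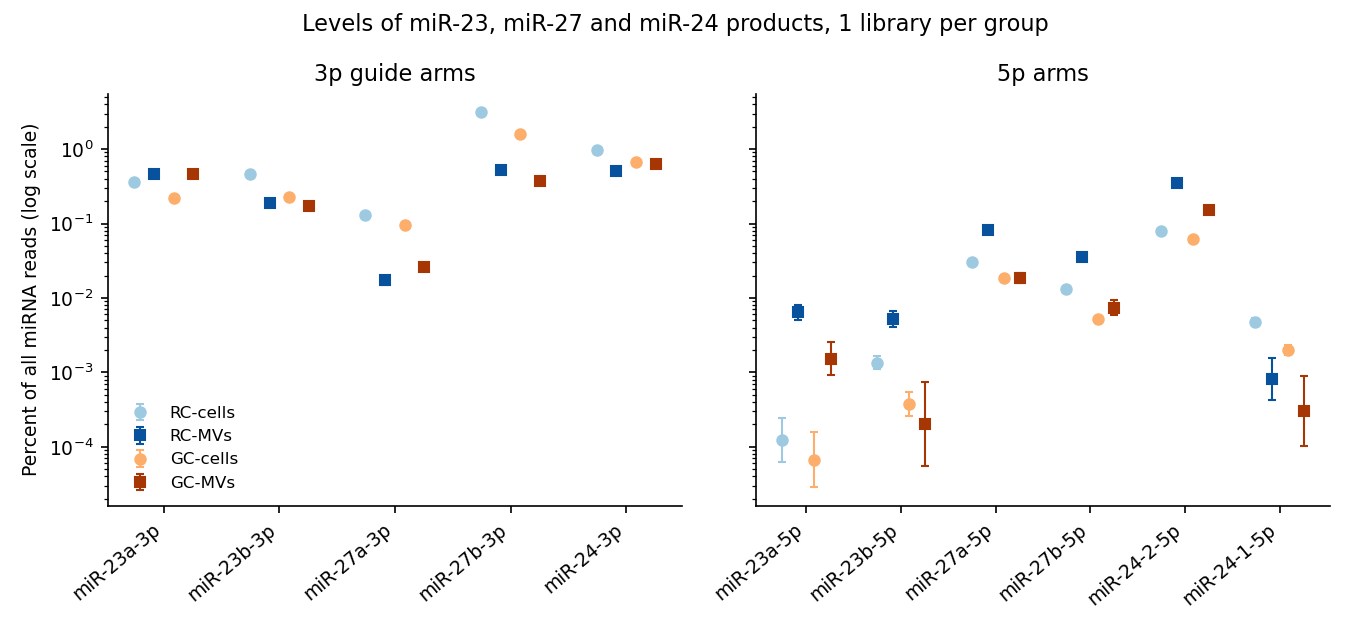
Percent of all miRNA reads (log axis) of each product in the 4 libraries, with the 3p guide arms on the left and the 5p arms on the right; points are single libraries and bars are 95% Wilson intervals. miR-27b-3p is the highest product in cells, at 3.11% in RC-cells, and 5 of the 6 products of the 5p arm are higher in RC-MVs relative to RC-cells, with miR-24-1-5p the exception.

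The order of the guide arms differed between cells and MVs. In RC-cells it was miR-27b-3p, miR-24-3p, miR-23b-3p, miR-23a-3p and miR-27a-3p. In GC-cells the order was the same, but miR-23b-3p and miR-23a-3p could not be separated, as the ratio of miR-23a-3p to miR-23b-3p was 0.987 with an interval from 0.966 to 1.01. In RC-MVs miR-27b-3p (0.519%) and miR-24-3p (0.513%) lay within their counting intervals of each other and miR-23a-3p followed with 0.457%. In GC-MVs the order was miR-24-3p, miR-23a-3p, miR-27b-3p, miR-23b-3p and miR-27a-3p. The place of miR-24-3p in the MVs depended on adding its loci. With the higher locus alone it had 2889 reads in RC-MVs, below miR-27b-3p (5754) and miR-23a-3p (5062). In GC-MVs it then had 3127, below miR-23a-3p (4548) and miR-27b-3p (3671). The product with the lowest level among the guide arms was miR-27a-3p in each library.

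The comparison of MVs with the cells that produced them asks which miRNAs make up a larger or smaller part of the vesicle RNA. In the resting zone, 3 of the 5 guide arms were lower in RC-MVs by 2-fold or more (miR-23b-3p, miR-27a-3p and miR-27b-3p), and no guide arm was higher by as much. Over the 414 miRNAs with reads in both libraries, 30.4% were at least 2-fold lower and 33.6% at least 2-fold higher in RC-MVs. The median log2 ratio was -1.28 over the guide arms and 0.08 over all 414 miRNAs. The summed guide arms were 2.96-fold lower in RC-MVs (ratio 0.338, 95% exact interval from 0.333 to 0.343).

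The miR-27 guides had the lowest ratios. The reads of miR-27b-3p were 202909 in RC-cells against 5754 in RC-MVs, and 119128 in GC-cells against 3671 in GC-MVs, or 3.11%, 0.519%, 1.61% and 0.374% of miRNA reads. Both MV libraries were below both cell libraries, and RC-MVs had 0.167 of the share in RC-cells (0.162 to 0.171), while the share was 4.30-fold lower in GC-MVs relative to GC-cells (4.16 to 4.45). The paralog miR-27a-3p had 8591, 192, 6997 and 257 reads in the same order of libraries, or 0.132%, 0.0173%, 0.0944% and 0.0262%. It was 7.61-fold lower in RC-MVs (6.60 to 8.83) and 3.61-fold lower in GC-MVs (3.19 to 4.10). The sum of both paralogs was 6.05-fold lower in RC-MVs and 4.26-fold lower in GC-MVs. Among miRNAs that had 10 or more reads in both libraries compared, miR-27a-3p ranked 18 from the lowest ratio of 293 in the resting zone and miR-27b-3p ranked 19 from the lowest of 275 in the growth zone.

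The miR-23 guides, which differ in 1 base, did not behave alike. The reads of miR-23a-3p were 23192 in RC-cells against 5062 in RC-MVs, and 16435 in GC-cells against 4548 in GC-MVs, or 0.356%, 0.457%, 0.222% and 0.463%. Both MV libraries were above both cell libraries, with a ratio of 1.28 in the resting zone (1.24 to 1.32) and of 2.09 in the growth zone (2.02 to 2.16). The reads of miR-23b-3p were 30087, 2112, 16648 and 1704, or 0.462%, 0.190%, 0.225% and 0.173%. Both MV libraries were below both cell libraries, and the share was 2.42-fold lower in RC-MVs (2.32 to 2.53) and 1.29-fold lower in GC-MVs (1.23 to 1.36). The sum of both paralogs was 0.817% in RC-cells against 0.647% in RC-MVs, and 0.446% in GC-cells against 0.636% in GC-MVs, with a ratio of MVs to cells of 0.791 for RC and 1.43 for GC.

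The guide miR-24-3p, summed over its loci, had 62405 reads in RC-cells against 5686 in RC-MVs, and 49682 in GC-cells against 6116 in GC-MVs, or 0.958%, 0.513%, 0.670% and 0.622%. It was 1.87-fold lower in RC-MVs relative to RC-cells (1.82 to 1.92), just inside the 2-fold threshold, and 1.08-fold lower in GC-MVs relative to GC-cells (1.05 to 1.11). With the same 3 abundant miRNAs left out of the totals, its ratio in the resting zone was 0.463 in place of 0.536, which is past the threshold.

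Between GC-MVs and GC-cells, 2 of the 5 guide arms, miR-27a-3p and miR-27b-3p, were at least 2-fold lower in GC-MVs and 1, miR-23a-3p, was at least 2-fold higher. Over the 417 miRNAs with reads in both libraries, 25.2% were at least 2-fold lower and 32.1% at least 2-fold higher. The median log2 ratio of the guide arms was -0.37, against 0.13 over all 417 miRNAs, and their sum was 1.70-fold lower in GC-MVs (1.67 to 1.73). The call of miR-23a-3p was lost with edgeR's TMM normalization, which gave a ratio of 1.79, and with DESeq2's size factors, which gave 1.88.

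**Figure D2:**
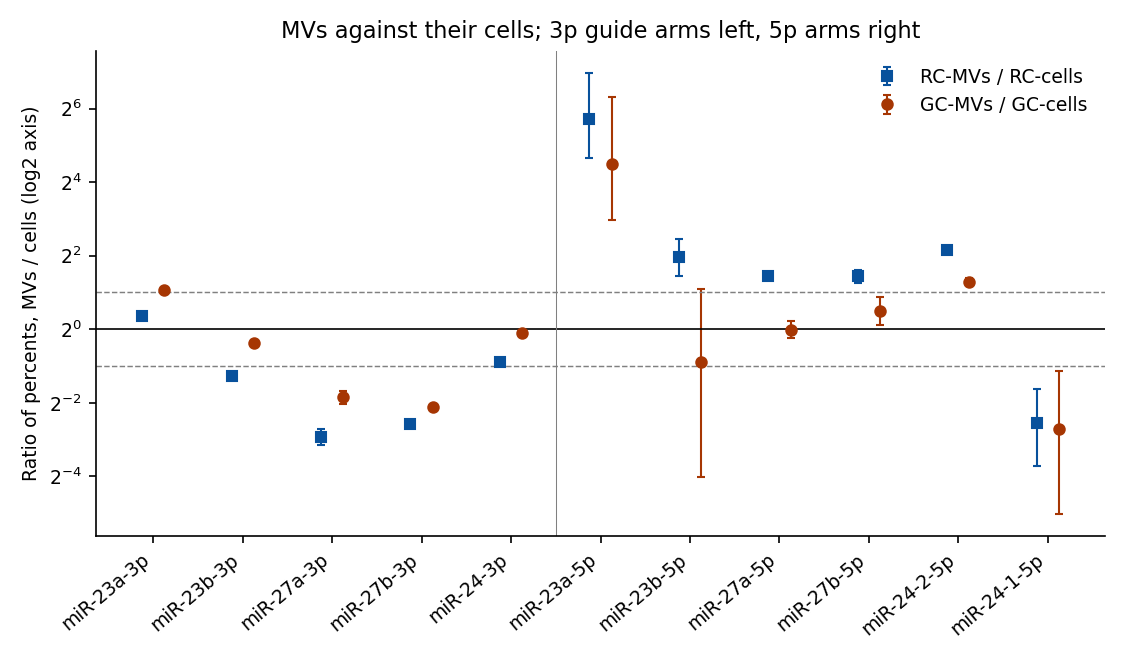
Ratio of the percent in MVs to the percent in cells (log2 axis) for each product in the resting zone (squares) and the growth zone (circles), with bars for 95% exact counting intervals and dashed lines at 2-fold. The guide arms of miR-27 lie below the lower dashed line in both zones, whereas miR-23a-5p and miR-24-2-5p lie above the upper one in both.

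The 5p arms were, with the exception of miR-24-1-5p, a larger part of the RC-MV library than of the RC-cell library. In RC-MVs, 5 of the 6 were at least 2-fold higher and 1 was at least 2-fold lower, beside 33.6% and 30.4% of all miRNAs, with a median log2 ratio of 1.70 beside 0.08. In GC-MVs, 2 were at least 2-fold higher, 1 was lower and 3 were within 2-fold, with a median of 0.25. These counts were near those of all miRNAs, of which 32.1% were higher and 25.2% lower with a median of 0.13. The sum of the 6 was 3.75-fold higher in RC-MVs relative to RC-cells (3.62 to 3.88) and 2.04-fold higher in GC-MVs relative to GC-cells (1.93 to 2.15), the latter 1.74-fold with TMM normalization and 1.84-fold with size factors.

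The most abundant 5p product was miR-24-2-5p, with 5156 reads in RC-cells against 3898 in RC-MVs, and 4531 in GC-cells against 1474 in GC-MVs, or 0.0791%, 0.352%, 0.0611% and 0.150%. Both MV libraries were above both cell libraries, and its ratio was 4.44 in the resting zone (4.26 to 4.63) and 2.45 in the growth zone (2.31 to 2.60). Its rank was 79 in RC-cells against 34 in RC-MVs. The 5p arm of the other miR-24 precursor, miR-24-1-5p, had 312, 9, 149 and 3 reads and was 5.90-fold lower in RC-MVs (3.07 to 13.0) and 6.58-fold lower in GC-MVs (2.21 to 32.3). The 5p arms of the same family, which part only after position 16, thus had ratios on opposite sides of 1 in both zones.

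The reads of miR-27a-5p were 1961 in RC-cells against 911 in RC-MVs, and 1379 in GC-cells against 182 in GC-MVs, or 0.0301%, 0.0822%, 0.0186% and 0.0185%. RC-MVs stood above the other 3 libraries, with a ratio of 2.73 to RC-cells (2.52 to 2.96), while GC-MVs and GC-cells were equal within counting error (ratio 0.996, from 0.849 to 1.16). The reads of miR-27b-5p were 854, 396, 387 and 73, or 0.0131%, 0.0357%, 0.00522% and 0.00743%. RC-MVs were again the highest library, with a ratio of 2.73 to RC-cells (2.41 to 3.07), and the ratio was 1.42 in the growth zone (1.09 to 1.83). In both zones the 5p arms of miR-27 therefore had higher ratios than their guides.

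The 5p arms of miR-23 were rare. There were 8 reads of miR-23a-5p in RC-cells against 71 in RC-MVs, and 5 in GC-cells against 15 in GC-MVs, which gave a ratio of 52.2 in the resting zone (25.1 to 125) and of 22.6 in the growth zone (7.82 to 79.6). Both MV libraries held more reads of this product than the cell libraries, although they were the shallower ones. There were 88, 58, 28 and 2 reads of miR-23b-5p. Its ratio was 3.87 in the resting zone (2.73 to 5.46), and the growth zone ratio of 0.539 had an interval from 0.0622 to 2.14, so that a difference was not detectable at this depth. With TMM normalization and with size factors that ratio was 0.461 and 0.487.

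The use of the arms was compared within each precursor, which does not depend on how libraries are scaled. In RC-MVs the 5p arm held most of the reads of Mir27a and, with the deposited split of miR-24-3p between its loci, of Mir24-2, the precursors of the a cluster whose 5p arms are the most abundant. The 5p arm of Mir27a had 18.6% of the reads of both arms in RC-cells (95% exact interval from 17.8% to 19.3%), 82.6% in RC-MVs (80.2% to 84.8%), 16.5% in GC-cells (15.7% to 17.3%) and 41.5% in GC-MVs (36.8% to 46.2%). The cell libraries lay close together and both MV libraries were higher, with RC-MVs the only library in which miR-27a-5p had more reads than miR-27a-3p. The 5p arm of Mir24-2 had 13.9%, 57.4%, 15.1% and 32.0% in the same order of libraries with that split. With all miR-24-3p reads given to Mir24-2, an alternative added after the data were seen, the shares were 7.63%, 40.7%, 8.36% and 19.4%. The order of the libraries was then RC-MVs, GC-MVs, GC-cells and RC-cells, as with the deposited split.

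In the b cluster the guide arm held most of the reads in all libraries. The 5p arm of Mir27b had 0.419% in RC-cells, 6.44% in RC-MVs (5.84% to 7.08%), 0.324% in GC-cells and 1.95% in GC-MVs (1.53% to 2.45%). The 5p arm of Mir23b had 0.292%, 2.67%, 0.168% and 0.117%, the last from 2 reads with an interval from 0.0142% to 0.423%. The 5p arm of Mir24-1 had 1.01% in RC-cells against 0.321% in RC-MVs, and 0.610% in GC-cells against 0.100% in GC-MVs, and so was lower in the MVs of both zones. In the a cluster, the 5p arm of Mir23a had 0.0345%, 1.38%, 0.0304% and 0.329%, and was higher in the MVs of both zones.

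**Figure D3:**
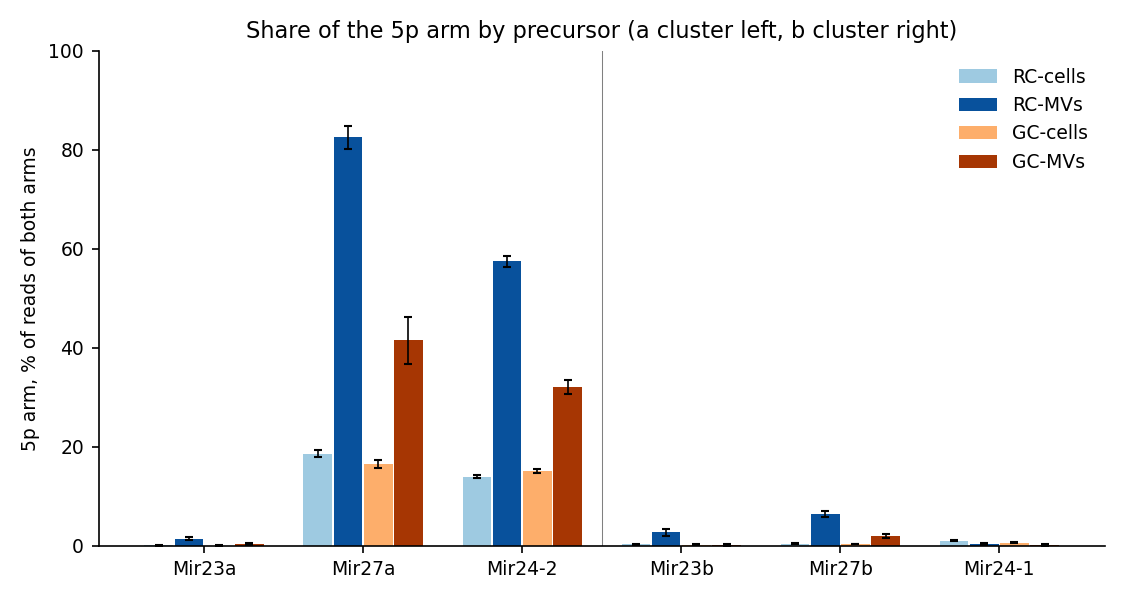
Share of the 5p arm among the reads of both arms of each precursor in the 4 libraries, in percent, with 95% exact intervals. The share of Mir27a is 82.6% in RC-MVs and 41.5% in GC-MVs against 18.6% and 16.5% in the cells, and the shares of Mir23a, Mir23b, Mir27b and Mir24-1 stay under 10% in all libraries.

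The arm with fewer reads over the 4 libraries was the 5p arm for each of the 6 precursors. Its share was higher in RC-MVs relative to RC-cells for 5 of the 6, beside 56.3% of the 158 precursors with reads of both arms in both libraries. It was higher in GC-MVs relative to GC-cells for 4 of the 6, beside 57.1% of 156 precursors. The log2 change in the odds of the minor arm had a median of 3.63 over the 6 in the resting zone, against 0.38 over the other 152 precursors. In the growth zone the median was 1.62, against 0.34 over the other 150. Among precursors with at least 10 reads of both arms in both libraries, Mir27a ranked 5, Mir27b 6, Mir23b 16 and Mir24-2 19 from the highest of 90 in the resting zone. In the growth zone Mir27b ranked 9, Mir27a 18 and Mir24-2 24 of 78. Between the MV libraries the share of the 5p arm was higher in RC-MVs for 6 of the 6 precursors, beside 47.9% of 144, with a median log2 change in odds of 1.94 over them and of -0.11 over the other 138. With at least 10 reads of both arms, Mir27a ranked 2, Mir23a 5, Mir27b 7 and Mir24-2 10 of 74. Between the cell libraries it was higher in RC-cells for 5 of the 6, beside 60% of 195, with medians of 0.29 and 0.13.

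Comparison of the a cluster with the b cluster gave a different result for each family and arm. In RC-cells, miR-23a-3p had 43.5% of the reads of both miR-23 guides (43.1% to 44.0%), against 70.6% in RC-MVs (69.5% to 71.6%). In GC-cells it had 49.7% (49.1% to 50.2%), against 72.7% in GC-MVs (71.6% to 73.8%). The a paralog was thus the major one in the MVs of both zones and not in the cells of either, and the ratio of miR-23a-3p to miR-23b-3p was 3.11-fold higher in RC-MVs relative to RC-cells and 2.70-fold higher in GC-MVs relative to GC-cells. The miR-27 guides differed less, and in opposite directions in the zones, as miR-27a-3p had 4.06% of the reads of both in RC-cells (3.98% to 4.15%), 3.23% in RC-MVs (2.79% to 3.71%), 5.55% in GC-cells (5.42% to 5.68%) and 6.54% in GC-MVs (5.79% to 7.36%). The b paralog had most of the miR-27 guide reads in each library, from 14.3 reads per read of miR-27a-3p in GC-MVs to 30.0 in RC-MVs.

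Of the summed 5p reads, most came from the a cluster. The a cluster products miR-23a-5p, miR-27a-5p and miR-24-2-5p together had 85.0% of the 5p reads of both clusters in RC-cells against 91.3% in RC-MVs, and 91.3% in GC-cells against 95.5% in GC-MVs. Most of these were miR-24-2-5p, which had 16.5 reads per read of miR-24-1-5p in RC-cells (14.7 to 18.6), 433 in RC-MVs (228 to 948), 30.4 in GC-cells (25.8 to 36.0) and 491 in GC-MVs (168 to 2385). The ratio of miR-27a-5p to miR-27b-5p was 2.30 in RC-cells (2.12 to 2.49) and 2.30 in RC-MVs (2.04 to 2.60), 3.56 in GC-cells (3.18 to 4.00) and 2.49 in GC-MVs (1.89 to 3.32). For this pair the resting zone libraries did not differ beyond counting error. The miR-23 pair went the other way in cells, where the b product had more reads, with 0.0909 reads of miR-23a-5p per read of miR-23b-5p in RC-cells (0.0381 to 0.187) and 0.179 in GC-cells (0.0538 to 0.468). In MVs this ratio was 1.22 for RC (0.853 to 1.76) and 7.5 for GC (1.74 to 67.6), the latter from 15 and 2 reads.

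**Figure D4:**
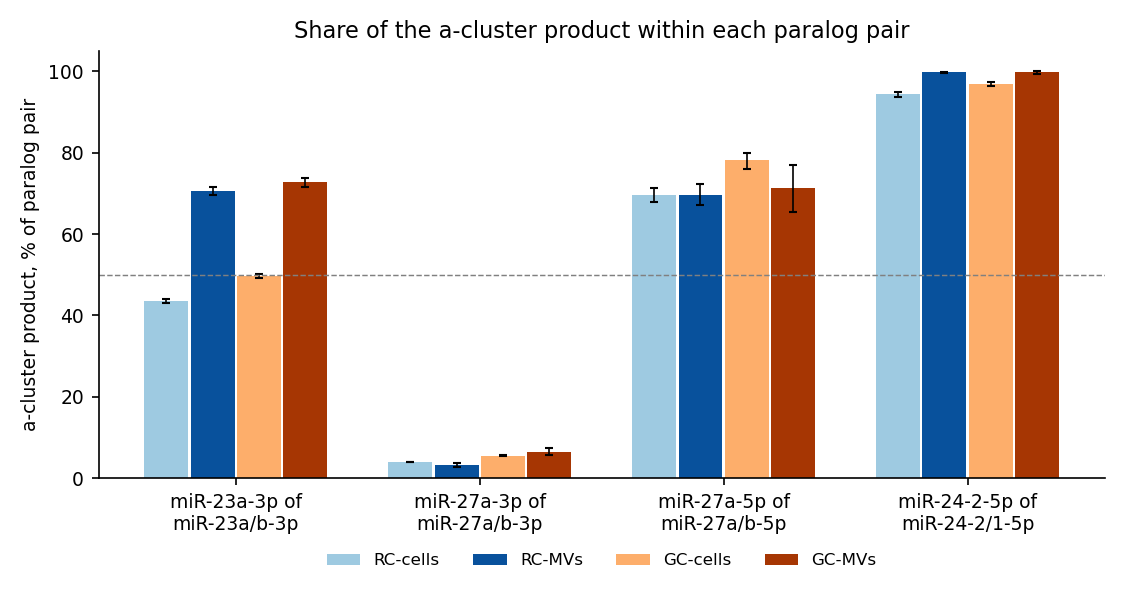
Share of the a cluster product among the reads of each paralog pair in the 4 libraries, in percent, with 95% exact intervals and a dashed line at equal reads. miR-23a-3p has 70.6% and 72.7% of its pair in RC-MVs and GC-MVs and under 50% in both cell libraries, while miR-27a-3p stays under 7% in all 4.

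Members of a cluster, although cut from 1 transcript, were not present in fixed proportions. In the b cluster there were 6.74 reads of miR-27b-3p per read of miR-23b-3p in RC-cells (6.66 to 6.83) and 7.16 in GC-cells (7.04 to 7.27), against 2.72 in RC-MVs (2.59 to 2.87) and 2.15 in GC-MVs (2.03 to 2.28). In the a cluster there were 2.70 reads of miR-23a-3p per read of miR-27a-3p in RC-cells and 2.35 in GC-cells, against 26.4 in RC-MVs (22.8 to 30.6) and 17.7 in GC-MVs (15.6 to 20.1). In both clusters the miR-27 guide was a smaller part of the pair in the MVs of both zones than in the cells.

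The zones were compared next, since the study asks whether the content of MVs depends on the maturation of the cells. All 5 guide arms had a higher share in RC-cells than in GC-cells, with ratios of 2.06 for miR-23b-3p (2.02 to 2.10), 1.94 for miR-27b-3p (1.92 to 1.95), 1.61 for miR-23a-3p, 1.43 for miR-24-3p and 1.40 for miR-27a-3p. Of the guides, only miR-23b-3p was past 2-fold, beside 13.7% of the 474 miRNAs with reads in both libraries at least 2-fold higher in RC-cells and 5.7% at least 2-fold lower. Its ratio was 1.61 to 1.65 with the other 3 scalings, so that the call was lost, while the direction of all 5 was the same. The median log2 ratio was 0.68 over the guide arms and 0.24 over all 474 miRNAs. Of the differences past 2-fold between the cells, 70.7% were higher in RC-cells with percents, 40% with TMM normalization, 37.6% with size factors and 40.7% without the 3 abundant miRNAs. Both guides of the b cluster had a larger ratio than their a paralogs, and the sum of miR-23b-3p and miR-27b-3p was 1.95-fold higher in RC-cells (1.94 to 1.97) against 1.54-fold for miR-23a-3p and miR-27a-3p (1.52 to 1.57).

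As percents, 4 of the 5 guide arms lay closer together between the MV libraries than between the cells, and miR-27a-3p lay further apart (1.51-fold lower in RC-MVs against 1.40-fold higher in RC-cells). None of the 5 was past 2-fold between RC-MVs and GC-MVs, with ratios from 0.662 for miR-27a-3p (0.546 to 0.801) to 1.39 for miR-27b-3p (1.33 to 1.45), although the latter was reversed to a log2 ratio of -0.16 with the 3 abundant miRNAs left out. The ratio of miR-23b-3p was 1.10 (1.03 to 1.17), with a log2 ratio of 0.14 that was reversed with each of the other scalings. Without the 3 abundant miRNAs, all 5 guide arms were lower in RC-MVs, with ratios from 0.428 for miR-27a-3p, which was then past 2-fold, to 0.897 for miR-27b-3p, while the ratios of RC-cells to GC-cells were from 1.12 to 1.65. As percents, the share of miR-23a-3p did not differ beyond counting error (ratio 0.986, from 0.947 to 1.03). Of the 397 miRNAs read in both, 24.7% were 2-fold or more higher and 14.6% as much lower in RC-MVs, and the higher calls were 62.8% of all calls with percents, 51.0% with TMM normalization, 46.4% with size factors and 24.5% without the 3 abundant miRNAs.

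The 5p arms differed between the MV libraries. All 6 were higher by 2-fold or more in RC-MVs, against the 24.7% given above, with a median log2 ratio of 2.11 beside 0.15 over all 397 miRNAs. The ratio was 4.81 for miR-27b-5p (3.74 to 6.26), 4.44 for miR-27a-5p (3.78 to 5.23), 4.19 for miR-23a-5p (2.38 to 7.88) and 2.34 for miR-24-2-5p (2.21 to 2.49). With few reads it was 25.7 for miR-23b-5p (6.80 to 217) and 2.66 for miR-24-1-5p (0.663 to 15.3), an interval that holds 1. Between the cells, 3 of the 6 were at least 2-fold higher in RC-cells, miR-23b-5p with a ratio of 3.58, miR-27b-5p with 2.51 and miR-24-1-5p with 2.38, all from the b cluster, and the other 3 were within 2-fold. Of all miRNAs, 13.7% were as much higher and 5.7% as much lower in RC-cells, and the median log2 ratio was 1.06 over the 5p arms beside 0.24. With the 3 abundant miRNAs left out of the totals, 4 of the 6 were still past 2-fold between the MVs, as miR-24-2-5p had a ratio of 1.51 and miR-24-1-5p of 1.72. The ratio of miR-24-2-5p was also under 2 with size factors (1.97). Between the cells, the calls of miR-27b-5p and miR-24-1-5p were lost with TMM normalization (1.99 and 1.89) and with size factors (1.96 and 1.86), and that of miR-24-1-5p without the 3 abundant miRNAs (1.91).

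The ratio of MVs to cells was lower in the resting zone than in the growth zone for all 5 guides, from 1.40-fold lower for miR-27b-3p to 2.11-fold lower for miR-27a-3p. For all 6 of the 5p arms it was higher in the resting zone, from 1.12-fold for miR-24-1-5p to 7.19-fold for miR-23b-5p, although for miR-24-1-5p the log2 quotient of 0.16 was -0.15 without the 3 abundant miRNAs. The counting interval of this quotient included 1 for miR-23a-5p and miR-24-1-5p, which had few reads, and lay on one side of it for the other 9 products. With the threshold at 4-fold, miR-27a-3p and miR-27b-3p were lower in RC-MVs, beside 17.1% of all miRNAs, and miR-27b-3p was lower in GC-MVs, beside 9.59%. Of the 5p arms, miR-23a-5p and miR-24-2-5p were higher by 4-fold in RC-MVs, beside 17.4%, and miR-23a-5p in GC-MVs, beside 14.6%, while miR-24-1-5p was lower in both. Between the MV libraries, 4 of the 11 products, all of the 5p arm, were 4-fold higher in RC-MVs, beside 4.79%, and none was 4-fold lower, beside 3.27%. Of these 4, miR-27b-5p and miR-23b-5p were still past 4-fold with TMM normalization and with size factors, and miR-23b-5p alone, with 2 reads in GC-MVs, without the 3 abundant miRNAs, where miR-24-2-5p was also no longer 4-fold higher in RC-MVs than in the cells. With TMM normalization miR-27a-3p was 4-fold lower in GC-MVs too. Between the cells no product was past 4-fold, beside 2.74% higher and 1.48% lower. The quotients of the zones share the 4 libraries, so the products are not independent of each other. No share over all miRNAs is given beside the counts of these quotients, so they are not read as particular to the clusters.

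Runx2 is repressed by several miRNAs known from osteoblasts, and 11 of them, miR-23a-3p included, were set beside the clusters. In RC-MVs against RC-cells, 5 had reads in both libraries, of which 4 were at least 2-fold lower and none higher, beside 30.4% and 33.6% of all miRNAs, with a median log2 ratio of -2.47 beside 0.08 over all miRNAs. The exception was miR-23a-3p, whereas miR-34c-5p (7441 reads in cells, 203 in MVs), miR-30c-5p (6755 and 198) and miR-218a-5p (2599 and 80) had ratios of 0.160, 0.172 and 0.181. In GC-MVs against GC-cells, 8 had reads in both, with 4 at least 2-fold higher and 3 lower, beside 32.1% and 25.2% of all miRNAs, and a median of 0.07 beside 0.13. Apart from miR-23a-3p, the higher ones had at most 3 reads in GC-cells.

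Other families with paralogous genes had sums on both sides of the cells. The miR-30 family (5 names) was 2.53-fold lower in RC-MVs and 2.28-fold lower in GC-MVs as a sum, and the miR-29 family (4 names) was 2.91-fold and 1.14-fold lower. In the miR-29 sum nearly all reads were miR-29a-3p, and the other 3 names had ratios from 0.840 to 1.11 for RC and from 1.39 to 2.13 for GC. All but 1 of the 5 miR-30 names, miR-30b-5p with 1.84, had ratios under 1 for GC, as all 5 had for RC. The miR-181 family (4 names) was 3.75-fold higher in RC-MVs and 3.13-fold higher in GC-MVs. The miRNAs whose profile over the 4 libraries was nearest to that of the summed guide arms were miR-222-3p, miR-455-5p, miR-382-3p, let-7a-5p and miR-495, among 131 miRNAs with at least 100 reads in each library. Their distances, on centred log2 percents, were between 0.41 and 0.58. By the same measure miR-23b-3p was at 0.38, and the other guides were further from their own sum than these 5 miRNAs, with miR-24-3p at 0.73, miR-27b-3p at 1.22, miR-27a-3p at 1.33 and miR-23a-3p at 1.88.

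The 10 products with a sequence had GC contents between 45.8% and 54.5%. Across miRNAs that had 10 or more reads in both libraries compared and a sequence, the GC content and the log2 ratio of MVs to cells had a Spearman rho of 0.56 over 265 miRNAs in the resting zone and 0.51 over 251 in the growth zone, a description of points that come from the same 2 libraries. The miRNAs of the middle band, from 45% to under 55%, had a median log2 ratio of 0.09 over 118 miRNAs in the resting zone, within which miR-27a-3p was at -2.93 and miR-24-2-5p at 2.15. Over the 9 products in this band with 10 or more reads in both, the median was 0.36. In the growth zone the band had a median of 0.26 over 108 miRNAs, and the 8 products in it one of -0.06. The part of GC content in the results was not tested.

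Marker miRNAs of tissues were also examined. These lists were not made to separate the zones, or cells from MVs, so they could not check the labels. Of 6 cartilage markers, 5 had reads in GC-cells, 1 of them with 1 read only, and 4 in the other libraries, led by miR-140-3p. Their sum was 0.526% in RC-cells against 1.00% in RC-MVs, and 0.636% in GC-cells against 0.841% in GC-MVs, while miR-675-5p was at 0 in all 4. This sum was mostly miR-140-3p, with ratios of MVs to cells of 2.48 for RC and 1.57 for GC. Of the 4 markers read in cells and MVs, miR-140-5p (0.119 for RC and 0.267 for GC) and miR-455-5p (0.377 and 0.389) were at least 2-fold lower in the MVs of both zones. Of all miRNAs, 30.4% were as much lower for RC and 25.2% for GC. Markers of blood cells and endothelium, 9 of 10 in the table, made up 0.0278% in RC-cells and 0.0236% in GC-cells, but 0.104% in RC-MVs and 0.254% in GC-MVs as a sum. In RC-MVs 681 of the 1158 reads of this sum were miR-451-5p of red blood cells. Of the 9 markers, 7 were at least 2-fold higher than in RC-cells, beside 33.6% of all miRNAs. The endothelial miR-126a-3p and miR-126a-5p had ratios of 0.608 and 0.402, where 30.4% of all miRNAs were at least 2-fold lower. In GC-MVs 7 of the 8 markers with reads in both were at least 2-fold higher, beside 32.1% of all miRNAs. The ratio was 2.97 for miR-126a-3p and 1.15 for miR-126a-5p, the exception. The liver marker miR-122-5p was at 0.000491% and 0.000459% in the cells and at 0.401% and 1.14% in the MVs. Muscle markers were between 0.00325% and 0.00994% in the 4 libraries as a sum, with miR-208a-3p at 0. In cells this sum was mostly miR-499-5p (624 of 648 reads in RC-cells, 584 of 637 in GC-cells), with ratios of MVs to cells of 0.160 for RC and 0.246 for GC. In GC-MVs 4 of the 5 markers with reads in both were at least 2-fold higher and 1 lower, beside 32.1% and 25.2% of all miRNAs. Those 4 had at most 29 reads in GC-MVs. In RC-MVs 1 of 2 was higher and 1 lower, beside 33.6% and 30.4%. The sum of the blood and endothelial markers and the liver marker were highest in GC-MVs, although miR-126a-5p alone was highest in RC-cells. Each 5p arm except miR-24-1-5p was highest in RC-MVs. The part of these markers in the results was not tested.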

How the data were processed

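Small RNA libraries were sequenced on an Illumina HiSeq instrument. According to the study's methods and the submitters' processing notes, the authors aligned reads to Rnor_6.0 with Bowtie2 and counted mature miRNAs with miARma-Seq. Versions, trimming and the treatment of reads with several matches are not given in the sources used here. The deposited values were unnormalized read counts for 774 rows, one per locus, with 1 column per library.

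Rows of equal mature name were added, and counts were divided by the column total. Ratios of percents have exact Clopper-Pearson intervals and percents have Wilson intervals (scipy 1.17.1, Python 3.11.15). Coverage was checked for the intervals of ratios only, on simulated counts with Poisson error and no PCR copies. A call is a difference of at least 2-fold, over miRNAs with reads in both libraries. With 1 library per group no count model was fitted. All 11 products were named. From other lists, the members with the highest mean percent and the 5 miRNAs of nearest profile were named. Named outside this rule, after their values were seen, were miR-30b-5p and miR-126a-5p as exceptions within their lists, and miR-675-5p and miR-208a-3p as markers at 0. The products and lists were chosen with earlier results of these data known. Alternatives were scaling by edgeR's TMM normalization (edgeR 4.0.16), DESeq2's size factors (DESeq2 1.42.0) or totals without the 3 abundant miRNAs miR-143-3p, miR-22-3p and miR-21-5p, a minimum of 10 reads, 0.5 reads added to each count, the highest locus in place of the sum, calls by the whole interval, and a 4-fold threshold. For the arms of Mir24-1 and Mir24-2, miR-24-3p reads were also divided equally between the loci.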

Additional observations from a re-analysis of the deposited data

Results flagged for a closer look

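Of the products, 5 had a log2 ratio of opposite sign in the groups of the same comparison, each with 1 library per group, and none of these differences between groups was tested. The log2 ratio of RC to GC was 0.68 in cells and -0.02 in MVs for miR-23a-3p (a difference of -0.70), 0.48 and -0.60 for miR-27a-3p (-1.08), and 0.52 and -0.28 for miR-24-3p (-0.79). The MV value of miR-23a-3p lay within its counting interval of 0.

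The log2 ratio of MVs to cells for miR-23b-5p was 1.95 for RC and -0.89 for GC (a difference of 2.85), where GC-MVs held 2 reads. It was 1.45 and -0.0059 for miR-27a-5p (a difference of 1.46), the latter within its counting interval of 0.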

How the results depend on the processing

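Under the alternatives, 131 of the values that answer a comparison stayed within counting error or within 1.5 times, and the 21 below did not. Part of the 131 could not move, such as the ratios of the miR-23 and miR-27 guide paralogs with the highest locus, since each of these guides has 1 locus. In GC-MVs against GC-cells, the number of guide arms at least 2-fold higher was 0 in place of 1 with TMM normalization, with DESeq2's size factors and at 4-fold, where 1 guide arm was lower and 1 in all was past the threshold. In RC-cells against GC-cells, 0 guide arms in place of 1 were past the threshold, and 0 higher, with TMM normalization, with size factors, without the 3 abundant miRNAs and at 4-fold. In RC-MVs against GC-MVs, 1 in place of 0 was past the threshold and lower without the 3 abundant miRNAs, namely miR-27a-3p with a ratio of 0.428. With all miR-24-3p reads given to 1 locus, chosen after seeing the data, the 5p share was 7.63%, 40.7%, 8.36% and 19.4% for Mir24-2 (RC-cells, RC-MVs, GC-cells, GC-MVs), and 0.497% in RC-cells and 0.299% in GC-cells for Mir24-1. These values changed with the scaling, the threshold or the allocation, and the reason for each change was not tested.

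The other values were the ratios of single products, their quotients between the zones and the ratios of sums. Of these, 226 stayed within counting error under the alternatives and 117 did not. Of 256 ratios of single products under alternatives, 13 lost and 4 gained a call and no called ratio reversed. The ratio of miR-27a-5p in GC-MVs to GC-cells went from a log2 value of -0.0059 to 0.10 without the 3 abundant miRNAs. Those totals moved the median log2 ratio of all miRNAs by -0.63 between the MVs and by -0.32 between the cells, and TMM normalization moved it by -0.20 and -0.34. No paired analysis was possible because each group had 1 library and no result came from a test, and for the same reason no library could be left out. Depth limited miR-23a-5p, miR-23b-5p and miR-24-1-5p, which had at most 15 reads in GC-MVs.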
